A study of Mus musculus with 8 samples.

Results

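Of the 1234 small RNA entries listed for mouse Kupffer cells, 398 carried the name of a microRNA (miRNA) from another species. They were chosen by name alone, as the entries whose name starts with neither mmu-, the mouse prefix, nor PC-, the prefix of predicted small RNAs; 565 entries had a mouse name and 271 a PC name. The cells came from the livers of male Trem2-/- mice (KO) and of wild-type littermates (WT), both 8 weeks old when a high-fat diet began that lasted 8 weeks. Kupffer cells are the resident macrophages of the liver, Trem2 is a lipid-sensing receptor of macrophages, and the cells were isolated with a flow cytometer. There were 4 KO libraries, from animals 40, 46, 88 and 90, and 4 WT libraries, from animals 35, 37, 80 and 82. Small RNA libraries do not measure the Trem2 transcript, so the knockout could not be checked here.

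A miRNA is cut from a hairpin precursor by Drosha and Dicer, and bases 2 to 8 from its 5′ end, the seed, guide it to its target transcripts. Mature miRNAs are often found with a base added or trimmed at the 3′ end, and the added bases are commonly A or U. Other small RNAs also yield short fragments: transfer RNA, which carries amino acids and receives a CCA tail after transcription, small nucleolar RNA (snoRNA), which guides modification of ribosomal RNA, small nuclear RNA (snRNA) of the spliceosome, and 7SL RNA, the RNA of the signal recognition particle. Several miRBase names, among them miR-1246, miR-1248, miR-1260 and miR-1285, have been reported to overlap such RNAs or repeats.

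The sequences of the leading entries fell into kinds that a script could tell apart. The first kind ended in CCA and is shown because it held many of the abundant entries and several that differed strongly among libraries. Capitals mark the CCA end, all sequences are read from the deposited table, and T is written as deposited.
bta-miR-2478_L-2: atcccacttctgacaCCA
pal-miR-9995-3p: atctcggtggaacctCCA
cgr-miR-1260: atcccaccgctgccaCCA
hsa-miR-7977_1ss6AG: ttcccggccaacgcaCCA
bta-miR-4286_R+1: accccactcctggtaCCA
efu-miR-9226_L-4_1ss22GA: gtccctgttcgggcgCCA
pal-miR-9226-5p_L-3_1ss4AT: tgtccctgttcgggcgCCA
pal-mir-9226-p3_1ss2AG: aggtccctgttcgggcgCCA
efu-miR-9226_L-1_2ss4AG22GA: caggtccctgttcgggcgCCA
pal-miR-9226-5p_1ss4AG: tcaggtccctgttcgggcgCCA
All 10 entries with miR-9226 in their name that entered the tests below ended in the same 18 bases, those of efu-miR-9226_L-4_1ss22GA. No mouse-named entry and no PC entry ended in them.

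The second kind shared a run of at least 16 bases with a mouse miRNA hairpin of RefSeq. Capitals mark the bases outside that run, which lay at the 3′ end in each entry shown, and the entries are shown because they include the most abundant one and several that differed among libraries.
rno-miR-101b-3p_R+1_1ss16GA: tacagtactgtgataactgaaT
cpo-miR-16a-5p_R-1_1ss21TA: tagcagcacgtaaatattggA
chi-miR-16a-5p_1ss22GA: tagcagcacgtaaatattggAA
hsa-miR-339-5p_1ss23GT: tccctgtcctccaggagctcacT
oan-miR-223-3p_1ss22AT: tgtcagtttgtcaaatacccTT
mdo-miR-26-5p_R+3: ttcaagtaatccaggataggctAG
cja-miR-194_R+1: tgtaacagcaactccatgtggaT
The RefSeq mouse mature miRNAs of 4 of these (build GRCm38.p6) are given with U, and with the seed in capitals.
mmu-miR-101a-3p: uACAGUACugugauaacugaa
mmu-miR-16-5p: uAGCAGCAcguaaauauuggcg
mmu-miR-339-5p: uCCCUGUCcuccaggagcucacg
mmu-miR-223-3p: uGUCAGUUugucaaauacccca
They lie at chr4:101346957-101346977 on the minus strand (Mir101a), at chr3:69009918-69009939 on the plus strand (Mir16-2) and chr14:61631936-61631957 on the minus strand (Mir16-1), at chr5:139369708-139369730 on the minus strand (Mir339), and at chrX:96242884-96242905 on the plus strand (Mir223). The seed is intact in each of the corresponding entries above.

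The third kind shared at least 16 bases with another annotated mouse small RNA of GENCODE. Capitals again mark bases outside the run.
ssc-mir-1285-p3_1ss24TA: caacatagcgagaccccgtctctA
ssc-mir-1285-p5: gtgggatcgcgcctgtgaata
bta-miR-1246_L+1R+2: AaatggatttttggagcagGGA
hsa-miR-1248_R-1: accttcttgtataagcactgtgctaa
eca-mir-1248-p3: tggtttttgtaataatgctagc
ssc-mir-1285-p3_1ss24TA shared all but its last base with Rn7s1 and Rn7s2, which encode 7SL RNA on chromosome 12; ssc-mir-1285-p5 lay wholly within both and within Gm24105 on chromosome 5. The miR-1246 entry shared its run with the snRNA gene Gm22970 on chromosome 14, and both miR-1248 entries lay wholly within the snoRNA genes Snora81 and Gm22519. Suffixes such as _L-2 and _1ss24TA are part of the deposited names, and their meaning is not given in the sources used here.

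Counted over all 398 entries, 89 shared a run with a mouse hairpin and did not end in CCA, and 82 ended in CCA. A run with another small RNA was shared by 44, of which 43 fell in neither of these kinds and are counted as the third kind. The remaining 184 did none of these. The kinds had parts of the summed level unlike their parts of the entries: 45.1% for the hairpin kind, 26.1% for the CCA kind, 17.6% for the other small RNA kind and 11.1% for the remainder. Of the entries ending in CCA, 6 also shared a run with a hairpin. A CCA end was found in 20.6% of these entries, in 1.24% of the mouse-named ones (7 entries) and in 2.95% of the PC ones (8 entries). None of the 398 sequences lay wholly within a RefSeq mouse hairpin, and 34 lay wholly within another annotated small RNA. Because mouse-named entries were left out by the choice of names, these counts are not set against each other. Among the 44 matching other small RNAs, 21 matched snoRNA, 12 snRNA, 8 Rn7s1 or Rn7s2, and 3 mitochondrial ribosomal RNA. A match describes shared letters and does not show where a read came from. Sequences of nuclear transfer RNA and of the nuclear precursor of the large ribosomal RNAs were not used here. No entry was compared with them, so a lack of a match in the remainder does not speak for these RNAs.

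The names came from 23 species prefixes. Cattle (bta) gave 104 entries, human (hsa) 82, the black flying fox (pal) 42, pig (ssc) 30, platypus (oan) 28, and Chinese hamster (cgr) and big brown bat (efu) 15 each. The prefix said little about abundance: rat (rno) gave 9 entries but had the highest summed level, 3969 CPM (CPM, the count divided by the TMM-scaled library total and multiplied by 1000000), because it held the most abundant entry. The CCA end was uneven among prefixes, with 33 of the 42 flying fox entries, 15 of the 30 pig entries and 10 of the 104 cattle entries. Names of a predicted precursor arm (p5 or p3) made up 84 of the 398, and 192 carried a suffix with ss.

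Most of these sequences were shorter than a typical miRNA. Lengths ran over 18 to 26 nucleotides with a median of 20, against medians of 22 for mouse names and 19 for PC names. Entries of 18 to 20 nucleotides were 55.0% of those named from other species and 11.5% of the mouse-named ones. By level the picture was different, since 22 nucleotides carried 33.7% of the summed level and 18 nucleotides 20.8%. The plot of lengths shows that second peak, to which the short CCA entries printed above belong.

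**Figure D1:**
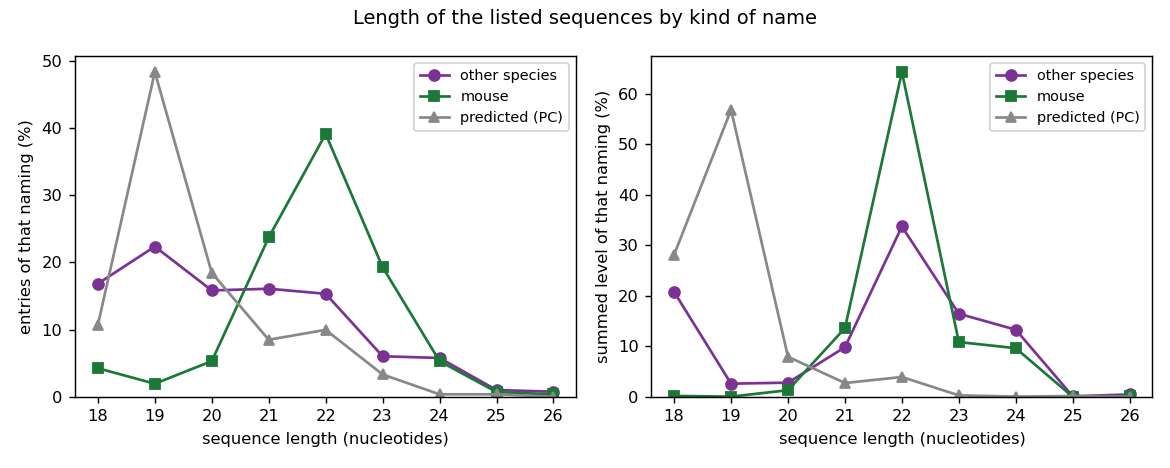
Length of the listed sequences in nucleotides (horizontal) against the percentage of entries (left) and of the summed mean level (right), for names from other species, mouse names and PC names. In entries, names from other species are most frequent at 19 nucleotides (22.4%), with 15.3% to 16.8% at each of 18, 20, 21 and 22. By level they peak at 22 nucleotides (33.7%) and again at 18 (20.8%).

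The 398 entries held 366 different sequences, and 63 of them had a sequence that another of the 398 also had. A full sequence in common with a mouse-named entry was found once: rno-miR-101b-3p_R+1_1ss16GA had the sequence of mmu-miR-101a-3p_R+1, and their counts were equal in all 8 libraries. That 1 sequence was also the most abundant of the 398. The first 16 bases of a mouse-named entry were found in 78 entries, which took 45.8% of the summed level. Equal values were not limited to equal sequences, as 82 entries had the same 8 values as another of the 398 with a different sequence. Entries with few counts in 1 library can be equal by coincidence. Among the 172 entries that entered the tests below, 49 equalled another tested entry in all 8 values, and there were 145 different sets of values. Tested entries are therefore not all independent measurements.

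The entries were few in counts. They took 1.76%, 1.93%, 1.51% and 1.21% of the counts in KO libraries 40, 46, 88 and 90, against 1.71%, 2.15%, 0.997% and 1.96% in WT libraries 35, 37, 80 and 82. The groups overlapped, the means were 1.60% ± 0.313 in KO and 1.71% ± 0.506 in WT (SD, n = 4 each), and the log2 ratio was -0.09. Its sign turned without KO 90 (0.02) and without WT 37 (0.04), so no direction is read from it. Library totals ran from 2129942 to 9443992 counts, at which 3 counts are worth 0.318 to 1.41 CPM; the Wilson 95% interval of each share was narrow, for example 0.991% to 1.00% in WT 80, and covers counting error only.

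A small number of entries held most of that level. The most abundant took 23.8% of it, the top 5 took 51.3% and the top 10 took 62.6%, while 142 of the 398 had a mean under 1 CPM. Counts above 0 in all 8 libraries were found for 134 entries, and 52 were seen in 1 library. After a filter on low counts (filterByExpr of edgeR) 172 remained for testing; the 226 that did not pass held 1.45% of the summed level. An entry can pass through the group in which it is high, so counts over the 172 do not speak for all 398.

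The libraries themselves stood apart in ways that matter for what follows. The miRNAs taken as macrophage and myeloid markers were present in all 8, with mmu-miR-142a-5p at 11664 to 30235 CPM. The summed level of these 5 markers was 102889 to 124315 CPM in KO and 68949 to 131470 CPM in WT, lowest in WT 82. Most of that sum was mmu-miR-146a-5p, at 41081 to 102500 CPM. Hepatocyte miR-122-5p was 115496 CPM in WT 37, and the summed hepatocyte markers (miR-122-5p and miR-192-5p) were 6792 to 36161 CPM in KO and 7300 to 126102 CPM in WT. The erythroid miR-451a followed the animal numbers: 262 to 1128 CPM in animals 80 to 90, against 3915 to 5912 CPM in animals 35 to 46. Endothelial miR-126a-3p ranged over 9753 to 14946 CPM. Of the 172 tested entries, 49 (28.5%) were highest in WT 37, compared with 17.7% of all entries tested.

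Loss of Trem2 was not accompanied by a detected difference in any of these entries. Between KO and WT, 0 of the 172 tested passed an adjusted p of 0.05 (edgeR quasi-likelihood test, Benjamini-Hochberg over all 627 tested entries), on a background of 0% of all entries. At an unadjusted p under 0.05 there were 0 of the 172 and 2 of the 627 (0.319%); DESeq2 and limma on the deposited normalized values also called 0, with 6 and 3 entries under an unadjusted p of 0.05 and 0 of the 172 in both. The median log2 difference was -0.03 for the 172 and -0.04 for all 627, with 82 of the 172 above 0 (46.6% of all 627) and 90 below (53.4% of all). A block for the range of animal numbers left 0 calls (0%), and 0 of the 172 and 17 of the 627 (2.71%) were under an unadjusted p of 0.05. All adjusted p-values of the 172 were 0.997 (edgeR), which does not show that the genotypes are alike: the 95% interval for the most abundant entry, rno-miR-101b-3p_R+1_1ss16GA, was -1.48 to 1.23 on the log2 scale.

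The smallest unadjusted p belonged to ssc-mir-1285-p3_1ss24TA, whose first 23 bases lie in 7SL RNA. It stood at 1337, 1722, 1206 and 1472 CPM in KO libraries 40, 46, 88 and 90, against 1884, 2395, 1256 and 3683 CPM in WT libraries 35, 37, 80 and 82. WT 82 was the highest and WT 80 lay among the KO values, so the groups overlapped. The log2 difference was -0.68 ± 0.36 (SE; edgeR adjusted p 0.997), and with a library left out it ran from -0.90 (unadjusted p 0.0232, without WT 80) to -0.37 (without WT 82), with 0 entries passing the adjustment. The 8 entries sharing bases with Rn7s1 or Rn7s2 summed to 1674 ± 232 CPM in KO and 2622 ± 1081 CPM in WT (SD, n = 4 each), with 4130 CPM in WT 82. That library was also high in the snoRNA-matched cja-miR-9933_L-2, at 193 CPM, where the log2 difference of -0.58 ± 0.41 became -0.16 without it.

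Among the other lower values, cja-miR-194_R+1 was 138, 40.6, 58.8 and 99.7 CPM in KO libraries 40, 46, 88 and 90, against 73.3, 284, 141 and 70.3 CPM in WT libraries 35, 37, 80 and 82. miR-194 is enriched in hepatocytes, and its highest value was in WT 37, where miR-122-5p was also highest; the part of hepatocyte RNA in this difference was not tested. The log2 difference was -0.75 ± 0.57, from -1.07 without KO 40 to -0.18 without WT 37 over the left-out libraries. For bta-mir-2887-2-p5, which matched none of the 3 kinds, the log2 difference was -0.47 ± 0.38, from -0.79 without KO 46 to -0.22 without WT 37 over the left-out libraries.

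On the higher side the values were low or rested on KO 88. The identical sequences dma-miR-6529 and cpo-miR-6529-5p were both at 16.9, 18.3, 91.5 and 23.8 CPM in KO libraries 40, 46, 88 and 90, against 18.7, 21.2, 16.1 and 20.9 CPM in WT libraries 35, 37, 80 and 82. Only KO 88 stood clear of the others. Their log2 difference of 0.97 ± 0.61 became 0.04 without KO 88, and that of cpo-miR-412-5p_R-3, 0.84 ± 0.50, became 0.46. The single tested entry of the 172 whose KO values all lay above its WT values was bta-miR-6119-5p, at 3.61, 3.16, 9.31 and 7.0 CPM in KO libraries 40, 46, 88 and 90, against 2.67, 0, 1.35 and 2.27 CPM in WT libraries 35, 37, 80 and 82 (log2 difference 1.85 ± 1.03). Groups did not overlap in 0.797% of all 627 tested entries. The values of bta-miR-6119-5p were low, at most 9.31 CPM in any library.

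Summed by kind of sequence, 3 of the 4 kinds overlapped between the genotypes. The CCA kind summed to 4524 ± 1701 CPM in KO and 4139 ± 1998 CPM in WT, the hairpin kind to 7210 ± 3020 CPM in KO and 7762 ± 3694 CPM in WT, and the other small RNA kind to 2381 ± 197 CPM in KO and 3474 ± 1223 CPM in WT (SD, n = 4 each). The remainder summed to 1834 ± 631 CPM in KO and 1858 ± 562 CPM in WT. In the other small RNA kind all KO sums, 2150 to 2571 CPM, lay below the WT sums, 2612 to 5250 CPM, with a gap between KO 46 and WT 80 smaller than the spread within either group; as a share of the library total the KO values (0.188% to 0.273%) and WT values (0.225% to 0.655%) overlapped. No test was made on these sums.

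**Figure D2:**
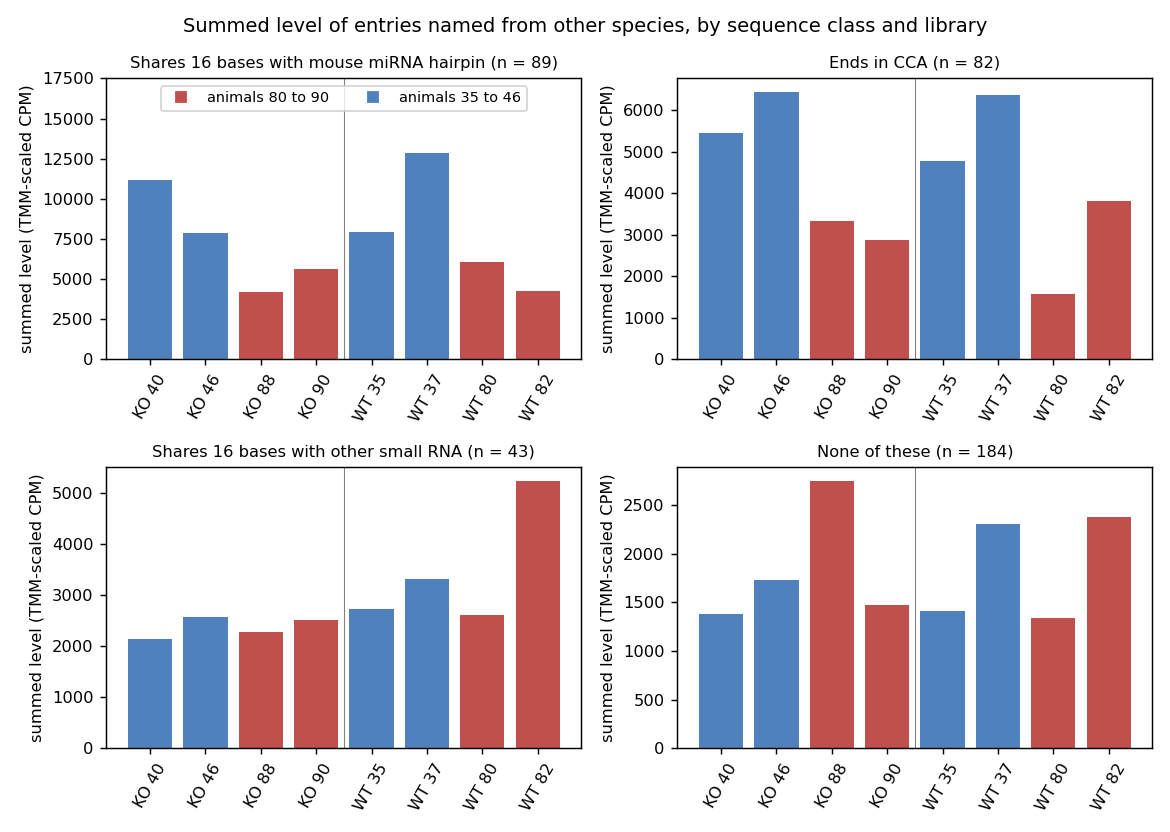
Summed level (TMM-scaled CPM, vertical) of the 4 kinds of sequence in each library, with KO libraries left of WT libraries and bars coloured by animal number range. In the hairpin and CCA kinds every bar of animals 80 to 90 is lower than every bar of animals 35 to 46, and in the other small RNA kind WT 82 is the tallest bar at 5250 CPM.

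The animal numbers divided these entries where the genotype did not. Each genotype has 2 animals numbered 35 to 46 and 2 numbered 80 to 90; the labels do not say what the numbers stand for, and what differs between the ranges cannot be told apart. In a fit that also held genotype, 48 of the 172 tested entries (27.9%) differed between animals 80 to 90 and animals 35 to 46 at an adjusted p of 0.05 (edgeR), where 203 of all 627 (32.4%) did. Higher in animals 80 to 90 were 19 (11%, background 16.6%) and lower were 29 (16.9%, background 15.8%). The ranges did not overlap in 73 of the 172 (42.4%) and in 41.1% of all 627. These shares are near those of all entries and are not a result about names from other species. The 48 calls are 45 different sets of values. The median log2 difference was -0.46 for the 172 and -0.04 for all 627; scaling by library totals alone shifted the differences of all entries by 0.17. The interaction of genotype and range gave 0 calls (edgeR), with 6 of the 172 and 30 of the 627 (4.78%) under an unadjusted p of 0.05.

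**Figure D3:**
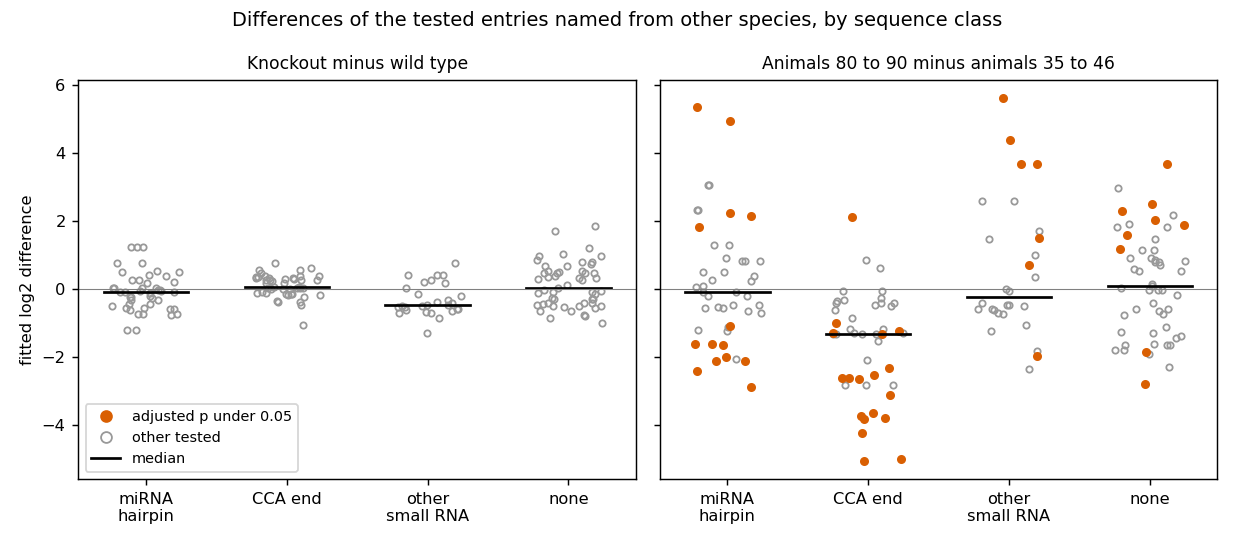
Fitted log2 differences (vertical) of the 172 tested entries by kind of sequence, for KO minus WT (left) and for animals 80 to 90 minus animals 35 to 46 (right). Filled points pass an adjusted p of 0.05 and bars are medians: none is filled on the left, and on the right the median of the CCA kind is at -1.33.

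The calls are given by kind of sequence beside the shares of all 627 entries, 15.8% lower and 16.6% higher. Among 45 tested entries ending in CCA, 17 (37.8%) were called lower in animals 80 to 90 and 1 (2.22%) higher. Their median difference was -1.33 on the log2 scale, and 42 of 45 were below 0, as were 51.7% of all 627. Of the 17 lower calls 10 were miR-9226 entries, which share an end; without these names 7 of 35 (20%) were lower and 1 (2.86%) higher. Among 46 of the hairpin kind 9 (19.6%) were lower and 5 (10.9%) higher, among 28 of the other small RNA kind 1 (3.57%) was lower and 6 (21.4%) higher, and among 53 of the remainder 2 (3.77%) were lower and 7 (13.2%) higher. Entries share sequences, above all within the CCA kind, so these are descriptions. Over the other settings and left-out libraries, the CCA kind had 13 to 24 calls lower and 1 to 3 higher. The entry called higher was bta-miR-342_R-3, which begins like miR-342-3p and also ends in CCA.

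The summed CCA level was 3332, 2874, 1589 and 3817 CPM in KO 88, KO 90, WT 80 and WT 82, against 5444, 6444, 4788 and 6364 CPM in KO 40, KO 46, WT 35 and WT 37. The 2 ranges did not overlap, and the mean of animals 80 to 90 was 0.504 times that of animals 35 to 46. On the scale of library totals they touched, with 0.398%, 0.279%, 0.137% and 0.477% in animals 80 to 90 and 0.475%, 0.670%, 0.487% and 0.552% in animals 35 to 46. Without the miR-9226 names the sums also overlapped, at 1441 to 3642 CPM in animals 80 to 90 and 3508 to 5211 CPM in animals 35 to 46. Erythroid miR-451a was lower in animals 80 to 90 as well (values above), and its part in the difference was not tested. In bulk libraries fewer cells of a type and less of an RNA per cell cannot be told apart.

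The miR-9226 entries separated the ranges widely. Its 23 entries summed to 164, 145, 149 and 179 CPM in KO 88, KO 90, WT 80 and WT 82, against 1210, 1241, 1283 and 1621 CPM in KO 40, KO 46, WT 35 and WT 37. The highest of the animals 80 to 90 was far under the lowest of the animals 35 to 46, and within each range the KO and WT values lay close together. The mean was 159 ± 15.5 CPM in animals 80 to 90 and 1339 ± 191 CPM in animals 35 to 46 (SD, n = 4 each), a ratio of 0.119. All 10 tested entries, with 9 different sets of values, were called lower. An entry can pass the filter on low counts through the 4 libraries of animals 35 to 46 alone, so 10 of 10 does not speak for the 23. Without the filter 10 of the 23 were called lower and 0 higher. Under the other settings and left-out libraries 9 or 10 were called lower and 0 higher. Because they end in the same 18 bases, they are not 10 independent results.

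Individually, efu-miR-9226_L-1_2ss4AG22GA was 14.1, 12.1, 13.9 and 17.8 CPM in KO 88, KO 90, WT 80 and WT 82, against 183, 166, 204 and 284 CPM in KO 40, KO 46, WT 35 and WT 37, a log2 difference of -3.84 ± 0.27 (SE; edgeR adjusted p 2.33e-05). The longer pal-miR-9226-5p_1ss4AG was 44.5, 41.6, 53.6 and 57.1 CPM in KO 88, KO 90, WT 80 and WT 82, against 280, 264, 332 and 263 CPM in KO 40, KO 46, WT 35 and WT 37, a log2 difference of -2.54 ± 0.22 (edgeR adjusted p 8.08e-05). Neither overlapped between ranges. pal-miR-9226-5p_L-2_1ss4AT was under 1 CPM in every animal of 80 to 90, a few counts or none in each library, and 12.0, 13.5, 11.8 and 16.5 CPM in KO 40, KO 46, WT 35 and WT 37, so the size of its fold is not read.

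**Figure D4:**
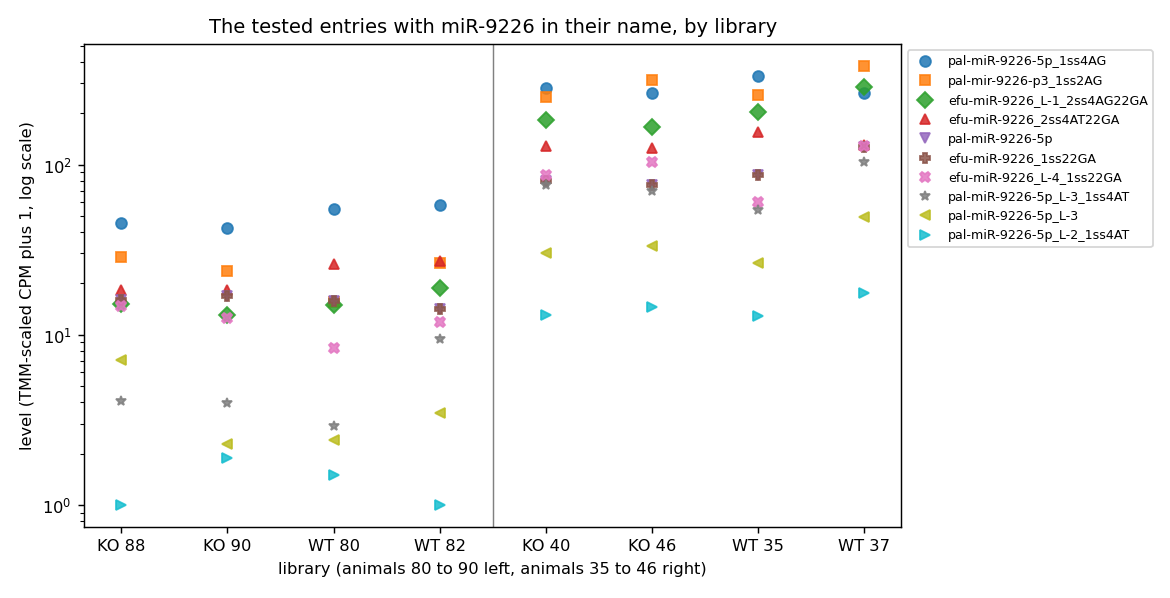
Level of the 10 tested entries with miR-9226 in their name (TMM-scaled CPM plus 1, log scale) in each library, with animals 80 to 90 on the left and animals 35 to 46 on the right. Every entry is lower in each of animals 80 to 90 than in any of animals 35 to 46, in KO and WT libraries alike.

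Other entries ending in CCA differed less or not detectably. bta-miR-2478_L-2, which also shares a run with the hairpin Mir3963, was 570, 633, 319 and 583 CPM in KO 88, KO 90, WT 80 and WT 82, against 1095, 1750, 1144 and 1191 CPM in KO 40, KO 46, WT 35 and WT 37 (log2 difference -1.31 ± 0.24, edgeR adjusted p 0.00329). The ranges did not overlap. bta-miR-4286_R+1, chosen after its values were seen, was 89.6, 88.9, 46.6 and 108 CPM in KO 88, KO 90, WT 80 and WT 82, against 431, 481, 327 and 431 CPM in KO 40, KO 46, WT 35 and WT 37 (-2.32 ± 0.29, adjusted p 0.000362, edgeR). By contrast pal-miR-9995-3p (-0.62 ± 0.39), hsa-miR-7977_1ss6AG (-0.33 ± 0.35) and hsa-miR-4454_L-2 (-0.46 ± 0.37) did not pass, and cgr-miR-1260 had a positive difference of 0.85 ± 0.31 that did not pass either (edgeR adjusted p 0.0598). Among WT libraries cgr-miR-1260 stood at 769 CPM in WT 82 and at 242 to 279 CPM in the rest. The entries ending in CCA thus differed among themselves in size, while 42 of the 45 tested were below 0.

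Entries of the hairpin kind differed in both directions. rno-miR-101b-3p_R+1_1ss16GA was 1704, 2290, 1933 and 1784 CPM in KO 88, KO 90, WT 80 and WT 82, against 7551, 3561, 4186 and 8607 CPM in KO 40, KO 46, WT 35 and WT 37 (log2 difference -1.63 ± 0.31, edgeR adjusted p 0.00341). Its values are those of mmu-miR-101a-3p_R+1, and the ranges did not overlap. The highest values were in WT 37 and KO 40, which also had the highest summed hepatocyte markers, 126102 and 36161 CPM. The part of hepatocyte RNA in this difference was not tested. hsa-miR-378c_R-2_2ss21AG22GC, a form of miR-378, was 385, 545, 780 and 433 CPM in KO 88, KO 90, WT 80 and WT 82, against 1378, 1956, 1435 and 1830 CPM in KO 40, KO 46, WT 35 and WT 37 (-1.63 ± 0.26, edgeR adjusted p 0.00158). The related bta-miR-378_R+1_1ss22CA gave -1.09 ± 0.30 (edgeR adjusted p 0.0195), a call lost when KO 40, KO 46, KO 88, KO 90 or WT 37 was left out.

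miR-16 variants went the other way. chi-miR-16a-5p_1ss22GA, which ends in AA where the RefSeq mouse form ends otherwise, was 415, 453, 468 and 272 CPM in KO 88, KO 90, WT 80 and WT 82, against 91.2, 80.4, 107 and 60.6 CPM in KO 40, KO 46, WT 35 and WT 37 (log2 difference 2.24 ± 0.27, edgeR adjusted p 0.000335). cpo-miR-16a-5p_R-1_1ss21TA, which ends 1 base earlier in A, gave 1.81 ± 0.27 (adjusted p 0.00129, edgeR). Both were chosen after their values were seen. The 3 entries that begin like miR-16-5p amounted to 8.56% ± 0.714 of the mouse-named miR-16-5p in animals 80 to 90 and 4.55% ± 0.751 in animals 35 to 46 (SD, n = 4 each), so the share of these forms, and not only their level, differed between the ranges.

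Counterparts of other miRNAs varied widely in how much of the signal bore a foreign name. The entries beginning like miR-339-5p came to 24.4% of the mouse-named level, those beginning like miR-150-5p, a lymphocyte-enriched miRNA, to 16.7%, those like miR-378 to 10.4%, those like miR-194-5p to 6.55% and those like miR-223-3p, a myeloid miRNA, to 4.65%. Shares over 4.65% were also found for miR-101a-3p (98.4%, the sequence held in full under both names), miR-378b (21.8%), miR-322-5p (7.59%), miR-363-3p (7.32%) and miR-16-5p (6.55%). The foreign-named entries averaged only 3.32 CPM for miR-378b and 0.740 CPM for miR-363-3p. Over 40 mouse miRNAs with such a counterpart the median was 0.776%, and 22 were under 1%, among them miR-22-3p (0.131%) and miR-26a-5p (0.320%). For miR-339-5p the share was 29.5% ± 4.28 in animals 80 to 90 and 19.2% ± 4.51 in animals 35 to 46 (SD, n = 4 each), and the ranges overlapped, with 23.4% in WT 82 and 24.6% in WT 35. The entries with foreign names averaged 445 CPM in animals 80 to 90 and 443 CPM in animals 35 to 46, while the mouse-named entry averaged 1520 CPM in animals 80 to 90 and 2378 CPM in animals 35 to 46. hsa-miR-339-5p_1ss23GT itself was 0.23 ± 0.28 on the log2 scale between the ranges and did not pass. mdo-miR-26-5p_R+3, a form of miR-26a-5p with AG at its end, did, at 2.14 ± 0.45 (edgeR adjusted p 0.00613).

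**Figure D5:**
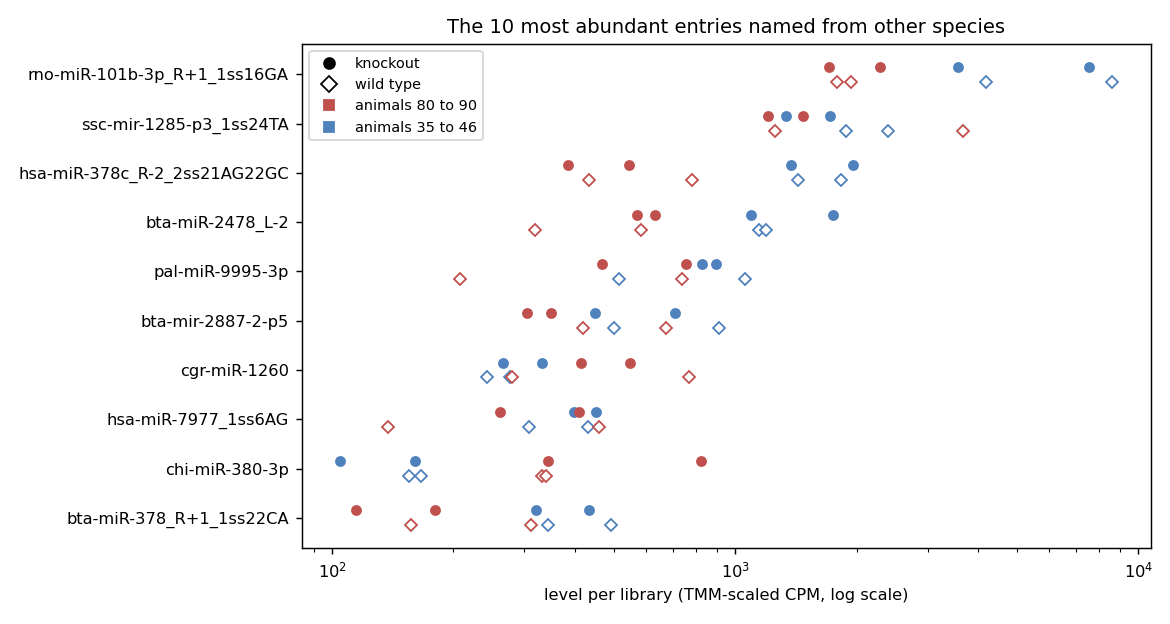
Level in each library (TMM-scaled CPM, log scale) of the 10 most abundant entries, with filled circles for KO, open diamonds for WT, and colour for the animal number range. KO and WT points are mixed in each row, while the ranges separate for rno-miR-101b, miR-378c, miR-2478 and miR-380 and overlap for miR-1285 and miR-9995.

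Of 15 tested entries matching snoRNA, 5 (33.3%, with 4 different sets of values) were called higher in animals 80 to 90 and 0 lower, where 16.6% and 15.8% of all 627 were. hsa-miR-1248_R-1, which lies in Snora81, was 62.9, 97.3, 142 and 91.4 CPM in KO 88, KO 90, WT 80 and WT 82, against 37, 33.4, 33.6 and 33.8 CPM in KO 40, KO 46, WT 35 and WT 37 (log2 difference 1.49 ± 0.30, edgeR adjusted p 0.00487). Another stretch of the same snoRNA, eca-mir-1248-p3, was 19.9, 8.11, 13.3 and 54.0 CPM in KO 88, KO 90, WT 80 and WT 82, against 0, 0, 2.29 and 0 CPM in KO 40, KO 46, WT 35 and WT 37. Neither overlapped between ranges, although the second rests on few counts in animals 35 to 46. eca-mir-1543-p5_1ss6AG, which shares a run with Snora74a, was 156, 206, 464 and 209 CPM in KO 88, KO 90, WT 80 and WT 82, against 13.8, 10.8, 13.7 and 8.14 CPM in KO 40, KO 46, WT 35 and WT 37 (4.40 ± 0.41, edgeR adjusted p 0.000104). This was the highest log2 difference among the called entries with a mean over 100 CPM.

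Matches to 7SL RNA and snRNA varied more. ssc-mir-1285-p3_1ss24TA had a log2 difference of 0.01 ± 0.31 between the ranges (edgeR adjusted p 0.986). ssc-mir-1285-p5 gave 0.70 ± 0.22 (edgeR adjusted p 0.0327), a call lost without the filter on low counts and when KO 40, KO 46, KO 90, WT 35, WT 37 or WT 82 was left out. bta-miR-1246_L+1R+2 gave -0.42 ± 0.36 (edgeR adjusted p 0.397), and hsa-miR-1290_1ss13TG, matched to the snRNA gene Gm22970 and named after its values were seen as the 1 lower call of its kind, was -1.99 on the log2 scale. The list of names reported to overlap other RNAs held 47 of the 398 entries from 10 of its 29 number stems, with 27.4% of the summed level; of its 29 tested entries 4 (13.8%) were called higher and 4 (13.8%) lower, near the 16.6% and 15.8% of all 627.

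Of the entries with no match to any of the 3 kinds, chi-miR-380-3p was the most abundant that passed. It was 823, 343, 331 and 339 CPM in KO 88, KO 90, WT 80 and WT 82, against 161, 105, 167 and 155 CPM in KO 40, KO 46, WT 35 and WT 37 (log2 difference 1.60 ± 0.35, edgeR adjusted p 0.00699). The ranges did not overlap and KO 88 was highest. hsa-miR-10395-3p_L-1 gave 2.30 ± 0.48 (edgeR adjusted p 0.0055) and hsa-miR-1469_L-2_1ss10GC 2.49 ± 0.59 (edgeR adjusted p 0.0108), the second at 1.84 with an adjusted p of 0.0511 when WT 82 was left out.

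Spread among libraries of a genotype was larger than spread within a range. Over the 172 tested entries the median SD of log2 (CPM plus 1) was 0.870 in KO and 0.985 in WT, and 0.680 in animals 80 to 90 and 0.437 in animals 35 to 46. For the other 455 tested entries it was 0.727 in KO and 0.744 in WT. Within the ranges it was 0.497 in animals 80 to 90 and 0.364 in animals 35 to 46 for those 455. The larger spread within a genotype was thus not particular to names from other species.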

How the data were processed

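The deposited table gives, per the file headers, a raw and a normalized column per library. The raw columns hold expected counts as deposited by the authors, not normalized: 19.9% of the values of the 398 entries were not whole (tolerance 1e-06). The deposited normalized signal equalled the raw value times 1 constant per library. How the authors made them is not stated: aligner, trimming, miRNA database and build were not given in the sources used here. Each library was made from 1 µg of total RNA, per the labels. Each library is a separately numbered mouse, and 2 lines of the table hold no entry.

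Expected counts were rounded, filtered with filterByExpr (627 of 1234 entries kept), scaled with TMM and tested with edgeR 4.0.16 quasi-likelihood models (R 4.3.3) on the whole table, with Benjamini-Hochberg adjustment at 0.05. Genotype was the only term for KO against WT; genotype and animal number range were the terms for animals 80 to 90 against animals 35 to 46. DESeq2 1.42.0 and limma 3.58.1 were alternatives, and the scripts were tested on simulated data. The simulated dispersion, the spread of counts beyond counting error, was below the 0.582 of the genotype fit. That test therefore does not show how many differences the genotype comparison could detect. Levels are TMM-scaled CPM; errors are SD for means and SE for log2 differences. Shared runs of at least 16 bases were searched in RefSeq mouse hairpins and GENCODE small RNA genes.

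The entries, lists and ranges were chosen with earlier results of these data known. Named entries are the 10 most abundant, the 4 with the smallest p each way for genotype, the 4 largest called differences each way for the range (mean 10 CPM or more), the most abundant of the 6 largest prefixes, the entry sharing a mouse sequence, up to 10 of the overlap list, and ssc-mir-1285-p3_1ss24TA; all others were chosen after their values were seen. p-values measure spread between these mice.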

Additional observations from a re-analysis of the deposited data

Results flagged for a closer look

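In 2 of 72 groups of 4 libraries examined, 1 library stood far from the other 3 of its genotype; chance alone flags about 1 in 20, or 3.6 here. cgr-miR-1260, which ends in CCA, was 769 CPM in WT 82 and 242 to 279 CPM in the other 3 WT libraries. cja-miR-9933_L-2, which lies in the snoRNA Gm25128, was 193 CPM in WT 82 and 77.1 to 85.7 CPM in the other WT libraries. The summed level of entries matching Rn7s1 or Rn7s2 was also highest in WT 82, at 4130 CPM. The cause was not tested.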

How the results depend on the processing

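No paired analysis was possible because the groups share no replicate numbers. Between KO and WT, 0 entries were called under all settings run: no filter, 10 counts in 4 libraries, RLE size factors, library totals, DESeq2, limma, merged sequences, a block for number range, each range alone, and each library left out. Of the values of entries named for the KO against WT comparison under these settings, 136 kept their sign and 2 were reversed: dma-miR-6529 and cpo-miR-6529-5p, -0.14 in animals 35 to 46 alone. The log2 ratio of the summed share ranged over -0.28 to 0.04 when libraries were left out. Between animals 80 to 90 and animals 35 to 46, calls among all entries ranged over 129 to 222 when libraries were left out, lowest without WT 37, and those among names from other species over 36 to 51. DESeq2 called 276 entries and 71 of these names, limma 254 and 67. Of the values of entries called and named there, 24 lost the call and 247 kept it; the losses belong to bta-miR-378_R+1_1ss22CA, hsa-miR-1469_L-2_1ss10GC, oan-miR-1386, ssc-mir-1285-p5 and bta-miR-2478_L+2, and the cause was not tested. The settings for single entries between ranges, the sums as a share of the total and the sum without miR-9226 names were chosen after seeing the data. Depth limits entries near 1 CPM, where 3 counts are worth 0.318 to 1.41 CPM.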
